A study of Macaca fascicularis with 48 samples.

Results

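The comparison described here sets thoracic spinal cord against cervical spinal cord in the same animals. It uses all 8 thoracic and all 8 cervical cord libraries, 16 of the 48 in the series, chosen by their tissue label and paired by the animal identifier in their descriptions. The series covers 6 tissues of cynomolgus monkeys (Macaca fascicularis) in a study of GS-8873, an inhibitor of hepatitis B virus transcripts, dosed by oral gavage for 13 weeks. The 4 control animals received 0 mg/kg/day and the 4 treated animals 6 mg/kg/day, each set with 2 males and 2 females, so both cord groups hold the same 4 control and 4 treated animals. The labels give no age, no genetic modification and no segment level within a cord region, and 1 of the 8 cervical libraries (treated animal 3) carries another position code than the other 7.

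HOX genes lie in 4 clusters, and along the embryonic axis the genes at one end of a cluster are expressed up to the hindbrain while those at the other end begin further towards the tail, a pattern that the adult cord partly keeps. The cervical and lumbar cord are enlarged by the neurons that serve the limbs, and the thoracic cord has less grey matter and carries the sympathetic preganglionic neurons. Grey matter holds neuron cell bodies, synapses and most capillaries, while white matter holds myelinated axons and the oligodendrocytes that wrap them.

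Total counts ran from 37906816 to 48433279 per library. Markers of the cord were present in both regions: as CPM, counts scaled to a common library total, MBP of myelin had a median of 34624 in cervical and 29836 in thoracic libraries, and GFAP of astrocytes 14318 and 16801. The cervical library of control animal 1 stood apart, with 1592 CPM of PRX, a protein of Schwann cells, against a cervical median of 15.9, and 16.6 CPM of SNAP25, a neuronal synaptic protein, against a cervical median of 925. The share of counts on the mitochondrial genome was 14.8% ± 5.22 in cervical and 24.2% ± 10.3 in thoracic libraries (SD, n = 8 each). It was higher in thoracic cord in 7 of 8 animals, by 9.43 percentage points ± 8.44 (SD of the paired difference, exact two-sided permutation p = 0.0234, smallest possible 0.00781). The share of the 50 most abundant genes went from 27.96% to 38.35% of counts, higher in 8 of 8 animals (exact p = 0.00781), and the number of genes with a count was lower in thoracic cord in 6 of 8 (exact p = 0.0391). The part of these library measures in the gene groups below was not tested beyond the fits given. Thoracic libraries of control animal 4, treated animal 1 and treated animal 4 were above 30%, and the highest cervical share, 25.7%, was that of treated animal 4.

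**Figure D1:**
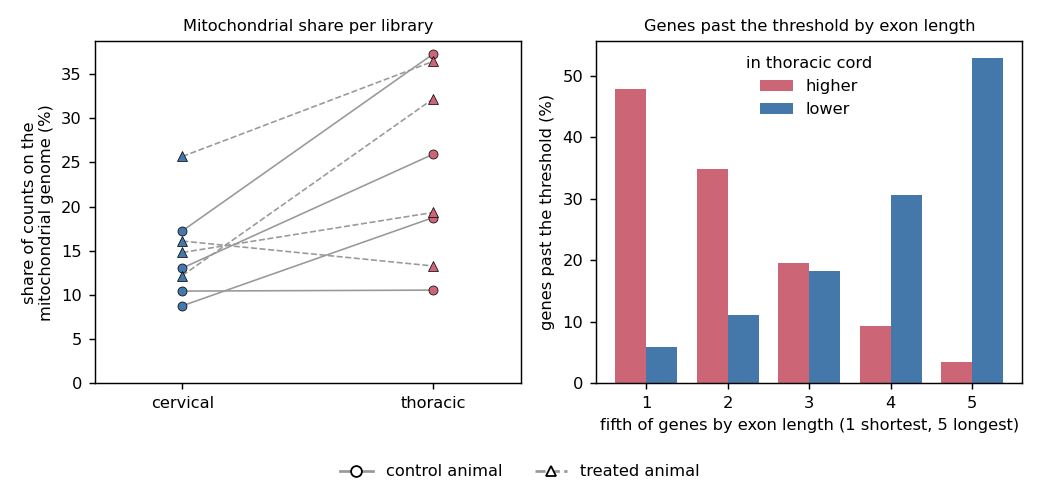
Left, share of counts on the mitochondrial genome (%) in each cervical and thoracic library, with lines joining the libraries of 1 animal (circles, control; triangles, treated). Right, percentage of genes past the threshold in each of 5 equal classes of the 14072 genes by summed exon length; higher calls go from 47.9% in the shortest class to 3.48% in the longest, and lower calls go from 5.83% to 52.9%.

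Of 14072 genes tested, 6578 differed between the regions at an adjusted p under 0.05 in edgeR's quasi-likelihood test with animal as a block, which is 46.7% of all genes. In thoracic cord 3238 were higher (23%) and 3340 lower (23.7%). Changes were mostly modest: 1198 genes (8.51%) passed with more than a 2-fold difference, the groups did not overlap for 82 genes (0.583%; 0.298% higher and 0.284% lower), and the direction was the same in all 8 animals for 4184 (29.7%). The calls followed gene length. Summed exon length had a median of 1810 bases among genes higher in thoracic cord and 4846 among those lower, and the median log2 fold change went from 0.46 in the shortest of 5 equal classes of genes to -0.43 in the longest, as the bars of calls by exon length show. Leaving out the 3 animals with a mitochondrial share above 30% left 2651 calls, 1627 higher and 1024 lower, and 2577 of these were calls of the full set with the same sign. With the mitochondrial share as a covariate no gene passed (0 calls, smallest adjusted p 0.251; 2361 genes at an unadjusted p under 0.05, 16.8%, with 1428 or 10.1% higher and 933 or 6.63% lower), so region and mitochondrial share could not be told apart for single genes. In control animals alone and in treated animals alone no gene passed in edgeR either, with 4265 (30.3%) and 5334 (37.8%) at an unadjusted p under 0.05. Scaling by library totals alone moved the median of all genes from -0.06 to -0.34, and 1571 of its 7138 calls were then higher (22.01% against 49.2% of calls). Below, a log2 fold change is thoracic over cervical, given ± SE, a positive value is higher in thoracic cord, and levels are CPM on the trimmed mean of M values (TMM) scale.

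HOX genes of paralog groups 9 and 10 gave 4 of the 12 largest rises, and HOXA10 had the highest log2 fold change of all genes tested. Of 35 HOX genes with counts deposited, 25 were tested, and 7 were higher and 2 lower in thoracic cord, beside 23% and 23.7% of all genes. Their median log2 fold change was 0.26, against -0.06 for all genes. Of the 6 tested genes in paralog groups 9 and 10, 4 were higher, with a median of 2.51, and of the 19 in groups 1 to 8, 3 were higher and 2 lower, with a median of 0.17.

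HOXA10, a homeodomain transcription factor of the caudal trunk, lay at 0 to 0.495 CPM in cervical libraries (median 0.266) and at 0.548 to 14.05 CPM in thoracic ones (median 2.70). Every thoracic library was above every cervical one. The log2 fold change was 4.07 ± 0.88 (adjusted p = 0.00593), a 16.8-fold ratio. HOXA10 occupies chromosome 3 from 93544596 to 93557631 on the Macaca_fascicularis_5.0 build, beside HOXA9 (93561025 to 93565820). HOXA9 had 0.326 to 6.46 CPM (median 3.07) in cervical and 4.09 to 34.8 CPM (median 15.2) in thoracic libraries. It was higher in thoracic cord in all 8 animals, by 2.56 ± 0.61 (adjusted p = 0.00853), and the ranges overlapped: thoracic control animal 1, at 4.09 CPM, had the lowest thoracic level of both HOXA9 and HOXA10.

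The C cluster on chromosome 11 showed the same order. HOXC10 (52886221 to 52895744), a marker of lumbar motor neurons in the embryo, went from 0 to 10.2 CPM (median 2.77) in cervical libraries to 7.73 to 31.5 (median 14.4) in thoracic ones. HOXC9 (52901647 to 52904886), which specifies thoracic motor columns in the embryo, went from 0.0407 to 15.9 CPM (median 4.46) to 6.997 to 25.2 (median 15.4). Both were higher in thoracic cord in all 8 animals, HOXC10 by 2.81 ± 0.96 (adjusted p = 0.0361) and HOXC9 by 2.46 ± 0.76 (adjusted p = 0.0244). The HOXC10 call was lost without control animal 1 (adjusted p = 0.0531), control animal 2 (0.0885) or treated animal 1 (0.0835), and the HOXC9 call without treated animal 1 (0.0559). With the mitochondrial share as covariate these 4 genes had log2 fold changes of 2.56 (HOXA9), 3.52 (HOXA10), 3.53 (HOXC9) and 4.01 (HOXC10), at unadjusted p of 0.0527, 0.0452, 0.0467 and 0.0676. Without the 3 animals of high mitochondrial share none of the 4 passed (adjusted p 0.0619, 0.0788, 0.0859 and 0.0906), and 2 HOX genes did. In lumbar libraries of the same animals, given here as a description, HOXA10 had a median of 27.97 CPM and HOXC10 of 44.8 CPM.

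The remaining genes of group 9 did not pass. HOXB9 ranged from 2.31 to 119 CPM in cervical and 2.04 to 37.7 CPM in thoracic libraries, with a difference of -0.51 ± 0.55 (adjusted p = 0.466), and was higher in thoracic cord in 4 of 8 animals. HOXD9 differed by 0.76 ± 0.29 (adjusted p = 0.05055; higher in 7 of 8 animals). The cervical libraries themselves were spread: HOXC8 was at 1.43 CPM in control animal 3 and 5.44 in treated animal 2 but had a cervical median of 55.0, and in these same 2 libraries HOXC10 was at 0 and HOXC9 at 0.0407 and 0.18 CPM. HOXC8 had a thoracic median of 33.8 CPM and a difference of 0.29 ± 0.73 (adjusted p = 0.769). Segment level is not in the labels, so its part in this spread was not tested.

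**Figure D2:**
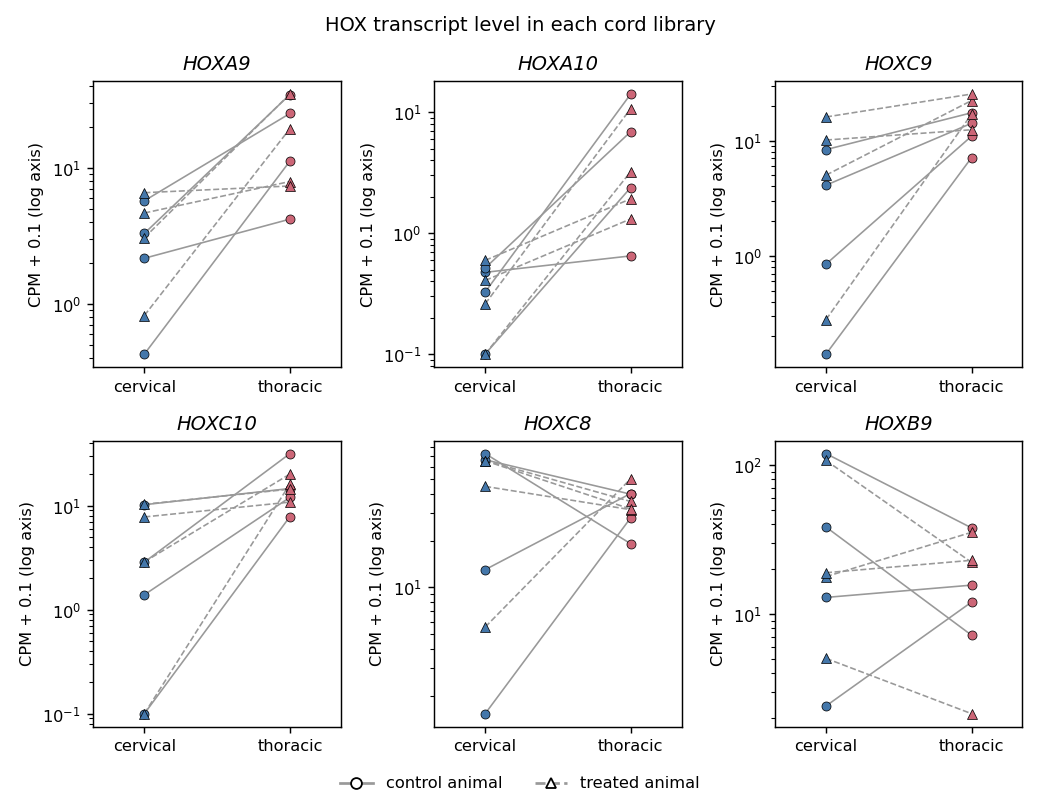
Level of 6 HOX genes in each library, as CPM + 0.1 on a log axis, with lines joining the cervical and thoracic library of 1 animal (circles, control; triangles, treated). HOXA9, HOXA10, HOXC9 and HOXC10 are higher in thoracic cord in all 8 animals, while HOXC8 is at 1.43 and 5.44 CPM in 2 cervical libraries and HOXB9 goes both ways.

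Among the genes of groups 1 to 8, differences were below 1 on the log2 scale. HOXB2 of the hindbrain and neck was higher by 0.61 ± 0.13 (adjusted p = 0.00525), HOXD1 by 0.68 ± 0.15 (adjusted p = 0.00671) and HOXB7 by 0.45 ± 0.15 (adjusted p = 0.0352). HOXA5, which is tied to the cervical level and to phrenic motor neurons in the embryo, was lower, at -0.38 ± 0.12 (adjusted p = 0.0288), and HOXA6 at -0.71 ± 0.22 (adjusted p = 0.0228). HOXA5 and HOXA6 share exon bases, so their counts are not independent. The HOXA5 call, with 1 animal left out, held only for the omission of control animal 1 or treated animal 3, the HOXB7 call only for that of control animal 3 or treated animal 3, and the HOXA6 call ended without control animal 2 or treated animals 1, 2 or 4 (adjusted p up to 0.117, 0.0884 and 0.0629). The 10 HOX genes that were not tested, among them HOXA11, HOXA13, HOXC11, HOXC12, HOXC13, HOXD10, HOXD12 and HOXD13, stayed at or below 0.503 CPM in all 16 libraries. HOXA13, HOXC12 and HOXC13 had no count in any of them, where 3 counts would be 0.0619 to 0.0791 CPM.

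**Figure D3:**
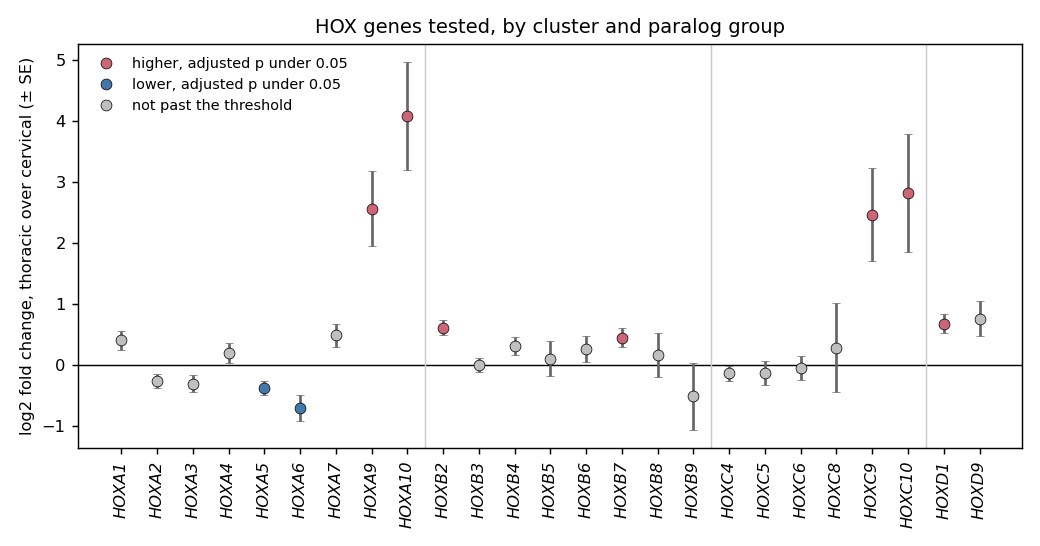
Log2 fold change of thoracic over cervical cord (± SE) for the 25 HOX genes tested, ordered by cluster and paralog group; red, higher and blue, lower at an adjusted p under 0.05, grey, not past the threshold. The 4 points above 2 are HOXA9, HOXA10, HOXC9 and HOXC10.

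HOX proteins bind DNA with PBX and MEIS partners, and retinoic acid sets their expression in the embryo. Of 24 tested genes of these groups, 2 were higher and 5 lower in thoracic cord (median -0.19). Neither count exceeded the shares of all genes, 23% higher and 23.7% lower. PBX3 was higher by 0.24 ± 0.07 (68.8 to 85.2 CPM in cervical, 85.1 to 107 in thoracic libraries; adjusted p = 0.0135). Under library totals alone the PBX3 difference was -0.04. ALDH1A3, which makes retinoic acid, was lower, at -1.96 ± 0.46 (adjusted p = 0.00769) and CYP26B1, which breaks it down, was at -0.76 ± 0.21 (adjusted p = 0.0151; lower in 8 of 8 animals). The cervical level of ALDH1A3 in control animal 1 was 89.2 CPM, against at most 15.5 in the others, and its call held without that animal.

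Genes of mature oligodendrocytes and myelin were higher in thoracic cord. Of 22 tested, 13 were higher and none lower, with a median of 0.40 and a median exon length of 2704 bases. Of all genes of 2458 to 3561 exon bases 19.6% were higher, with a median of -0.02. MOG, a surface protein of the myelin sheath, went from 463 to 980 CPM (median 642) to 739 to 1426 (median 991), higher in all 8 animals by 0.63 ± 0.12 (adjusted p = 0.00465). KLK6, an oligodendrocyte protease, was higher by 0.97 ± 0.15, and TPPP3, a tubulin-binding protein of the list, by 1.03 ± 0.13 (both adjusted p = 0.00437). NKX6-2, a transcription factor that regulates myelin genes, had 11.8 to 55.8 CPM in cervical and 26.7 to 148 CPM in thoracic libraries, a difference of 1.72 ± 0.31 (adjusted p = 0.00438). MBP differed by 0.19 ± 0.18 (adjusted p = 0.405). Without the 3 animals of high mitochondrial share 6 members were higher at a median of 0.44, and under library totals alone 5 were higher and 1 lower.

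Oligodendrocyte precursor genes went the other way: 4 of 10 were lower, none higher, with a median of -0.32. The list's median exon length was 4769 bases, and of all genes of 3562 to 5236 bases 30.6% were lower, with a median of -0.21. PDGFRA, the growth factor receptor that marks precursors, had 9.99 to 69.5 CPM (median 43.4) in cervical and 3.10 to 38.4 CPM (median 13.1) in thoracic libraries. It was lower in all 8 animals, at -1.79 ± 0.36 (adjusted p = 0.00493). PTPRZ1, a phosphatase of precursors and astrocytes, was lower in 7 of 8, at -0.68 ± 0.15 (adjusted p = 0.00663). 1 precursor gene was lower when the animals of high mitochondrial share were left out. The median of the precursor list was -0.04 with the mitochondrial share as covariate, and that of the myelin list 0.49.

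Cholesterol, a main constituent of myelin, is made from acetyl-CoA through mevalonate. Of the 21 tested genes of the cholesterol list 15 were higher in thoracic cord and 1 lower, with a median of 0.44. All 15 were higher in each of the 8 animals. The lower gene, named after its value was seen, was STARD4, a sterol transporter (-0.65). In the exon length class of the list's median of 2062 bases, 34.8% of all genes were higher, with a median of 0.18. MVK, mevalonate kinase, had 21.7 to 41.7 CPM (median 31.2) in cervical and 35.03 to 72.2 CPM (median 49.1) in thoracic libraries. The MVK difference was 0.74 ± 0.10 (adjusted p = 0.00437), and the ranges overlapped. The 3 lowest cervical MVK levels were those of treated animals 1, 2 and 3. In cervical libraries the list summed to 1196 to 1610 CPM in treated and 2361 to 3340 CPM in control animals. In thoracic libraries the sums were 1665 to 1881 and 3395 to 4119 CPM. MSMO1 and NSDHL, which remove methyl groups from sterols, were higher by 0.74 ± 0.10 and 0.80 ± 0.12, and DHCR7, which completes cholesterol, by 0.57 ± 0.08 (each adjusted p = 0.00437). Without the animals of high mitochondrial share 11 were higher and 1 lower, and with the mitochondrial share as covariate the list's median was 0.45. Under library totals alone 10 were higher and 3 lower.

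Microglial genes were mostly higher in thoracic cord, with 11 of 19 higher, 4 lower and a median of 0.35. Of all genes of 1590 to 2457 exon bases, where the list's median of 1869 lies, 34.8% were higher, with a median of 0.18. TYROBP, an adaptor of microglial receptors, had 14.4 to 58.6 CPM (median 20.4) in cervical and 26.4 to 142 CPM (median 54.6) in thoracic libraries, a difference of 1.58 ± 0.25. TREM2, a lipid receptor that signals through TYROBP, was higher by 1.08 ± 0.18 and AIF1 by 1.12 ± 0.19 (all adjusted p = 0.00437). LAPTM5, a lysosomal membrane protein of leukocytes, went from 106 to 152 CPM to 157 to 233 CPM with no overlap (0.45 ± 0.08, adjusted p = 0.00438). The 4 lower members, named after their values were seen, were MRC1 (-0.82) and CD163 (-0.65), which mark macrophages around vessels, and the leukocyte surface genes ITGAM (-0.58) and PTPRC (-0.65). Without the animals of high mitochondrial share 7 microglial genes were higher and 1 lower at a median of 0.43, and without the replicate block 6 and 2.

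Astrocyte genes were divided, with 5 of 15 higher, 2 lower and a median of -0.0024, beside 23% higher and 23.7% lower among all genes. S100B, a calcium-binding protein, was higher by 1.36 ± 0.22 (adjusted p = 0.00437) and AGT, angiotensinogen, by 0.58 ± 0.12 (adjusted p = 0.00553). GFAP, the astrocyte intermediate filament, was higher in all 8 animals, by 0.56 ± 0.12 (adjusted p = 0.00637), with overlapping ranges. AQP4, the water channel of astrocyte endfeet, differed by 0.34 ± 0.11 (adjusted p = 0.0251), a call that ended without control animals 1 or 4 or treated animals 1 or 3 (adjusted p 0.0519 to 0.0597). The 2 lower members, named after their values were seen, were the glutamate transporter SLC1A2 (-1.36) and the sodium pump subunit ATP1B2 (-1.23). Under library totals alone 1 astrocyte gene was higher and 7 lower, and without control animal 1 the counts were 3 and 3.

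Blood vessel genes were lower in thoracic cord. Of 13 endothelial genes 11 were lower and none higher, with a median of -0.97. Of all genes of 3562 to 5236 exon bases, where the list's median of 4213 lies, 30.6% were lower, with a median of -0.21. CDH5, the cadherin of endothelial junctions, had 6.50 to 52.6 CPM (median 22.1) in cervical and 4.68 to 14.3 CPM (median 6.07) in thoracic libraries, a 3.11-fold ratio (-1.64 ± 0.21, adjusted p = 0.00437). ABCB1, the efflux pump of the blood-brain barrier, had 18.3 to 55.7 CPM (median 39.3) and 6.30 to 30.1 CPM (median 11.9), a difference of -1.59 ± 0.22 (adjusted p = 0.00437). Both were lower in all 8 animals, and TIE1 (-0.97 ± 0.15) and TEK (-1.06 ± 0.19), receptors of vessel maturation, passed too. CLDN5, the tight junction protein of the barrier and 1 of 2 endothelial genes that did not pass, differed by 0.20 ± 0.22 (adjusted p = 0.492). Without control animal 1, 11 endothelial genes were lower, and without the animals of high mitochondrial share 9.

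In bulk tissue, fewer cells of a type and less RNA per cell cannot be told apart. Pericyte and smooth muscle genes followed the endothelium, with 6 of 10 lower, 1 higher and a median of -0.66. In the exon length class of the list's median of 3206 bases, 18.2% of all genes were lower, with a median of -0.02. ACTA2, smooth muscle actin, had 9.29 to 48.4 CPM in cervical and 2.41 to 20.9 CPM in thoracic libraries (-1.69 ± 0.26, adjusted p = 0.00437), and CNN1, calponin, differed by -1.96 ± 0.34 (adjusted p = 0.00438). PDGFRB, the receptor that marks pericytes, was lower, at -0.56 ± 0.14 (adjusted p = 0.0103). KCNJ8, a potassium channel of pericytes, was the 1 higher member (0.35, named after its value was seen), with an adjusted p of 0.048, and of 0.0752 without control animal 1. Leaving out the animals of high mitochondrial share left 4 members lower at a median of -0.69.

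Genes of 15 collagens were lower where they passed, 11 of 15, and all 15 had negative values, with a median of -1.46. COL1A1, COL1A2 and COL3A1, the main fibre collagens of connective tissue, were counted in the meningeal list instead and did not pass (-0.76, -1.14 and -1.39, each lower in 6 of 8 animals and higher in control animal 4 and treated animal 4). COL4A2 of basement membranes had 16.8 to 263 CPM (median 33.2) in cervical and 5.40 to 17.6 CPM (median 12.9) in thoracic libraries (-1.88 ± 0.36, adjusted p = 0.00448), lower in 8 of 8 animals. COL16A1 (-1.08 ± 0.18) and COL11A1 (-1.095 ± 0.18) were lower too (both adjusted p = 0.00437). The highest cervical COL4A2 level was that of control animal 1, whose summed collagen level was 1739 CPM against 748 or less in the other 7. Without that animal 12 collagen genes were lower, and without the animals of high mitochondrial share 6, at a median of -1.525. The summed level of the 15 was lower in thoracic cord in all 8 animals, and with COL1A1, COL1A2 and COL3A1 added, after the data were seen, in 6 of 8. The list is long in exon length (median 5306 bases). In the longest of the 5 classes 52.9% of all genes were lower, with a median of -0.43.

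**Figure D4:**
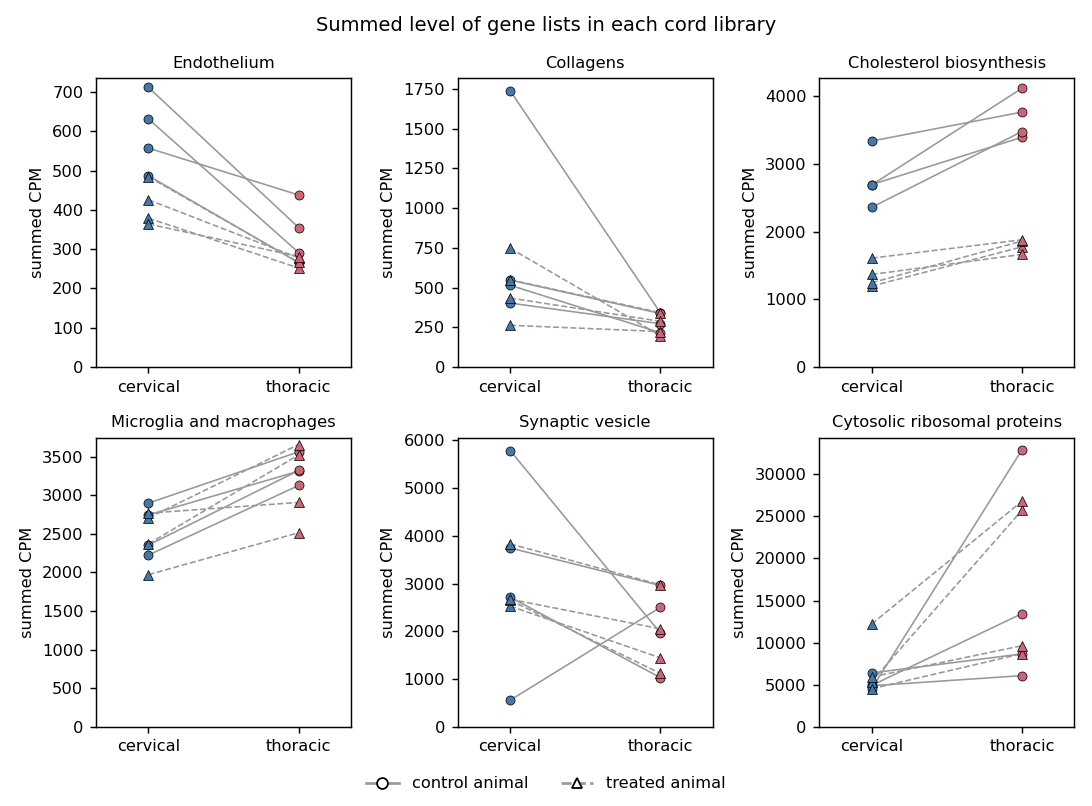
Summed CPM of the members of 6 gene lists in each library, with lines joining the cervical and thoracic library of 1 animal (circles, control; triangles, treated). Endothelial sums and those of the 15 collagens without COL1A1, COL1A2 and COL3A1 are lower and cholesterol, microglial and ribosomal protein sums higher in thoracic cord in all 8 animals; the synaptic sum is lower in 7 of 8, the exception being control animal 1.

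The summed level of neuronal genes was lower in thoracic cord in 7 of 8 animals, and the calls depended on control animal 1. The pan-neuronal list summed to 708 CPM in the cervical library of that animal and to 4607 or more in the other 7 cervical libraries, against 1892 to 6562 in thoracic ones. With all animals, 0 of 19 pan-neuronal genes passed (median -0.46), and without control animal 1, 10 were lower (median -0.85). Without the animals of high mitochondrial share 0 passed (median -0.20). SNAP25 differed by -0.90 ± 0.70 (adjusted p = 0.312), with 15.4 to 2108 CPM in cervical and 151 to 820 CPM in thoracic libraries, and by -1.33 (adjusted p = 0.00568) without control animal 1.

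Of 25 synaptic vesicle genes 6 were lower with all animals (median -0.65), a share near the 23.7% of all genes, and 19 without control animal 1 (median -1.03). SV2C, a vesicle glycoprotein, had 2.49 to 91.3 CPM (median 28.1) in cervical and 1.26 to 6.78 CPM (median 2.62) in thoracic libraries, a 7.825-fold ratio (-2.97 ± 0.71, adjusted p = 0.00833). The 2 lowest cervical levels were those of control animal 1 and treated animal 4. BSN, a scaffold of the presynaptic active zone, was lower in all 8 animals (-1.74 ± 0.44, adjusted p = 0.0104). Of 21 glutamate receptor genes 6 were lower and none higher (median -0.72; 13 lower without control animal 1), near the 30.6% of all genes in the exon length class of the list's median of 4340 bases. GRIA2, the AMPA receptor subunit that limits calcium entry, had 81.5 to 205 CPM in cervical and 55.3 to 104 CPM in thoracic libraries (-0.93 ± 0.17, adjusted p = 0.00438), and the kainate receptor subunits GRIK2 and GRIK3 were lower, at -1.09 ± 0.22 and -1.915 ± 0.43. Of 19 GABA and glycine receptor genes 4 were lower and 1, GABRD (0.78, named after its value was seen), higher, beside 23.7% and 23% of all genes. Without control animal 1 the receptor counts were 13 and 1. Without the animals of high mitochondrial share, 2 synaptic vesicle, 2 glutamate receptor and 0 GABA and glycine receptor genes were lower.

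Channels of axons included 1 of the 12 largest falls. KCNA1, the potassium channel beside nodes of Ranvier, had 0.94 to 16.8 CPM (median 6.04) in cervical and 0.204 to 1.52 CPM (median 0.616) in thoracic libraries. It was lower in all 8 animals, 7.65-fold (-2.935 ± 0.47, adjusted p = 0.00437). SCN8A, the main sodium channel of nodes, was lower in 7 of 8, at -2.29 ± 0.59 (adjusted p = 0.01165). In all, 3 of 16 potassium and 3 of 10 sodium channel genes were lower and none higher, shares below or near those of all genes (23.7%, and 52.9% in the class of the sodium channels' median of 6576 exon bases), and 7 and 6 without control animal 1. Without the animals of high mitochondrial share 2 and 1 were lower.

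Neuron subtypes gave few calls. CHAT, the enzyme that makes acetylcholine, ranged from 0.166 to 18.8 CPM in cervical and from 0.912 to 2.90 CPM in thoracic libraries (-0.64 ± 0.94, adjusted p = 0.594), and 1 of 11 motor neuron genes passed (VIPR2, a peptide receptor, at -1.25, named after its value was seen). Of 11 genes of motor column subtypes 6 were lower and none higher, with a median of -0.60. In the exon length class of the list's median of 4469 bases, 30.6% of all genes were lower, with a median of -0.21. The list's highest cervical sum, 1926 CPM, was that of control animal 1, where CHAT was at 0.166 CPM, so the sum did not follow CHAT. MECOM (-1.48 ± 0.20), ALCAM (-0.60 ± 0.10) and FOXP1 (-0.69 ± 0.13), the last known for limb motor neurons, were lower in 8 of 8 animals. NOS1, which preganglionic neurons of the thoracic cord express, was lower in thoracic cord in 7 of 8 animals (0.499 to 8.5 against 0.708 to 2.32 CPM; -1.68 ± 0.48, adjusted p = 0.0182), a call lost without control animal 2 (0.0507) or treated animal 1 (0.0527). NPY, a peptide of inhibitory dorsal horn neurons, was higher by 1.70 ± 0.57 (adjusted p = 0.0332), while in all 2 of 14 inhibitory neuron genes were higher and 1 lower. The NPY call, with 1 animal left out, held only for the omission of control animal 3 or treated animal 1. Of 16 excitatory interneuron genes 1 was lower (RORA, named after its value was seen) and none higher, while 12 had positive values, with a median of 0.44, and DESeq2 called 4 higher and 1 lower.

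Genes of the ribosome were higher in thoracic cord. All 32 ribosomal protein genes tested passed, each higher in all 8 animals, with a median of 1.32 and log2 fold changes of 0.88 to 1.47. RPL3 of the large subunit had 208 to 518 CPM (median 259) in cervical and 275 to 1082 CPM (median 460) in thoracic libraries (1.015 ± 0.21, adjusted p = 0.00544), and RPS15 of the small subunit differed by 1.47 ± 0.31 (adjusted p = 0.00568). The 3 highest thoracic sums of the list belonged to the libraries with a mitochondrial share above 30%, and the highest cervical sum to treated animal 4. The part of the mitochondrial share in these values was not tested beyond the 2 fits that follow. Without those 3 animals 30 were higher (median 0.82), and with the mitochondrial share as covariate the median was 0.43. The list is short in exon length (median 784 bases), and in the shortest class 47.9% of all genes were higher, with a median of 0.46.

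All 13 protein-coding genes of the mitochondrial genome were higher (median 0.93), among them ND5 (0.76 ± 0.17, adjusted p = 0.00649) and ND3 (1.396 ± 0.32, adjusted p = 0.00698), subunits of respiratory complex I. Without the animals of high mitochondrial share 1 was higher, and DESeq2 called 5. Of 14 nuclear genes of the respiratory chain 9 were higher and 1 lower (median 0.54). In the shortest exon length class, where the list's median of 1492 bases lies, 47.9% of all genes were higher, with a median of 0.46. With the mitochondrial share as covariate the median of the nuclear list was 0.05. NDUFA1, a small subunit of complex I, was higher by 1.17 ± 0.24 (adjusted p = 0.00513) and NDUFS1, its largest, lower, at -0.61 ± 0.14 (adjusted p = 0.00755). Their exon lengths were 764 and 2265 bases, and NDUFA1 shares exon bases with RNF113A, so reads of these 2 genes may be mixed. Among the nuclear genes 3 were higher and 1 lower when the animals of high mitochondrial share were left out.

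**Figure D5:**
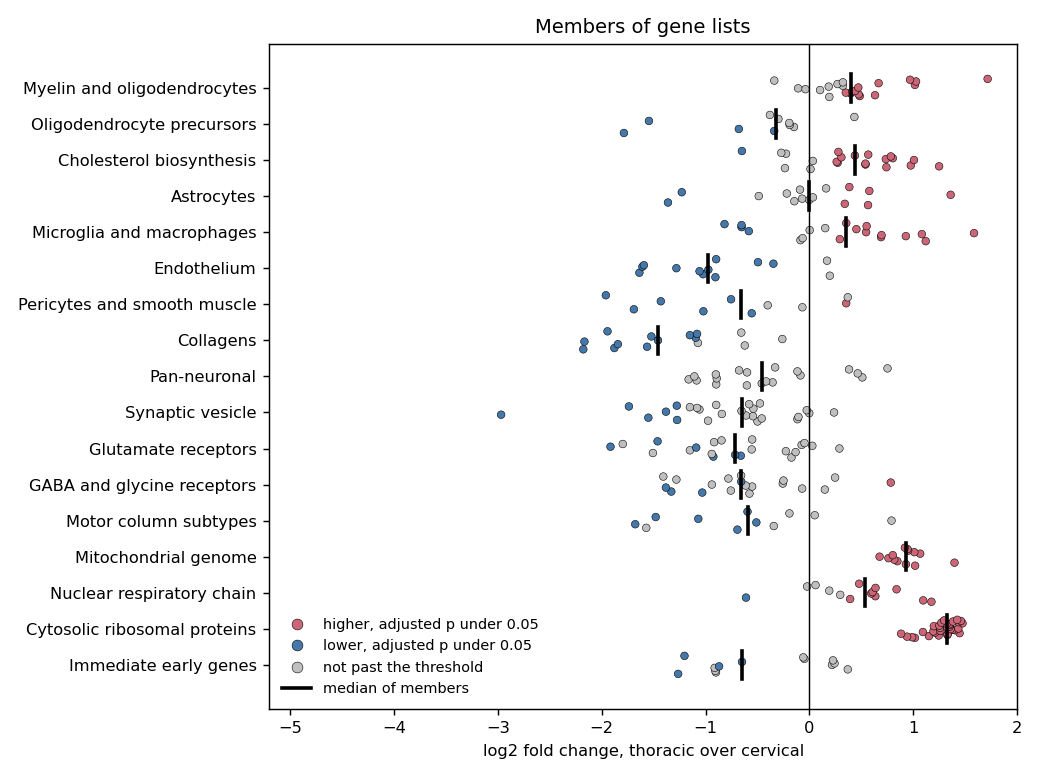
Log2 fold change of thoracic over cervical cord for each tested member of 17 gene lists; red, higher and blue, lower at an adjusted p under 0.05, grey, not past the threshold, black bars, list medians. Ribosomal protein and mitochondrial genes lie wholly above 0 and the 15 collagen genes wholly below it.

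Immediate early genes, which are induced within minutes by activity or injury, were lower where they passed: 4 of 13, with a median of -0.65. Of all genes 23.7% were lower, and 18.2% in the exon length class of the list's median of 3147 bases. Without the animals of high mitochondrial share 2 immediate early genes were lower. FOS had 11.2 to 97.2 CPM (median 14.7) in cervical and 3.59 to 33.4 CPM (median 7.43) in thoracic libraries, lower in all 8 animals, at -1.26 ± 0.23 (adjusted p = 0.00438), and KLF4 was lower, at -1.20 ± 0.30 (adjusted p = 0.00981). Heat shock genes were divided, 3 of 10 higher and 2 lower, with the small heat shock protein HSPB8 at 0.77 ± 0.14 and the reticulum chaperone HSPA5 at -0.63 ± 0.11 (both adjusted p = 0.00438). Of 24 Wnt and BMP pathway genes 6 were higher and 4 lower. BAMBI, a decoy receptor of the pathway, was higher by 0.77 ± 0.14, its target ID2 by 0.78 ± 0.16 and the Wnt binder SFRP2 by 0.82 ± 0.20. The Wnt modulator DKK2 went from 0.42 to 1.43 CPM to at most 0.412 CPM without overlap (-1.92 ± 0.45, adjusted p = 0.00797). Among 23 transcription factors of spinal interneurons 5 were higher and 4 lower, and NKX2-2, which also acts in oligodendrocytes, was higher by 0.82 ± 0.135 (adjusted p = 0.00437). Counts of the heat shock, Wnt and BMP and interneuron factor lists lay near or below the shares of all genes, 23% higher and 23.7% lower. Under library totals alone the Wnt and BMP counts were 2 and 6.

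Among the 12 largest rises with the same sign in all animals, 4 were HOX genes and NKX6-2 was another. ITIH1, a heavy chain of the inter-alpha-trypsin inhibitor, had 1.39 to 39.6 CPM (median 7.63) in cervical and 6.60 to 138 CPM (median 34.1) in thoracic libraries. Its difference of 1.89 ± 0.22 (adjusted p = 0.00437) held in 8 of 8 animals, and the ranges overlapped. CHIT1, a chitinase of activated macrophages, was higher by 1.83 ± 0.26, LTC4S, leukotriene C4 synthase, by 1.68 ± 0.31, and the homeobox gene NKX2-8 by 1.865 ± 0.27. FAM178B and C4orf48 were both higher by 1.64, with SE of 0.31 and 0.335. APOA2, an apolipoprotein of the liver, was higher by 2.36 ± 0.86 (adjusted p = 0.0444), from at most 0.799 CPM in cervical to 0.0885 to 14.8 CPM in thoracic libraries, and the call, with 1 animal left out, held only for the omission of control animals 2 or 3. The summed level of 10 hepatocyte plasma protein genes, a list added after the data were seen, was also higher in thoracic cord in all 8 animals (36.9 to 107 against 68.4 to 348 CPM), with 3 of 10 called higher. SERPINA1 made up most of this sum in most libraries, and without it the sum was higher in 6 animals and lower in control animal 2 and treated animal 2. The part of liver RNA in the APOA2 value was not tested.

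The 12 largest falls held 4 Rfam entries that lie within 16.3 kb of chromosome 10 (24852322 to 24868659), with no other gene name of the table between them and CRYBA4 as the next gene, 26.1 kb away. RF01875 had 0.791 to 8.21 CPM in cervical and 0.0759 to 1.42 CPM in thoracic libraries (-3.12 ± 0.45), and RF01876 (-2.78 ± 0.44), RF01874 (-2.65 ± 0.38) and RF01877 (-2.58 ± 0.41) were lower as well, each in 8 of 8 animals (all adjusted p = 0.00437). TECPR2, an autophagy gene, was at 69.5 to 119 CPM in 7 cervical libraries and 8.78 in treated animal 4, and at 4.67 to 72.3 CPM (median 11.6) in thoracic libraries, lower in all 8 animals, at -2.43 ± 0.53 (adjusted p = 0.00602). EPHA3, an axon guidance receptor, was lower, at -2.55 ± 0.32 (adjusted p = 0.00437), ADGRG6, an adhesion receptor needed for Schwann cell myelin, at -2.30 ± 0.41 (adjusted p = 0.00438), and FMO2, a monooxygenase, at -2.80 ± 0.35 (adjusted p = 0.00437). OTOGL (-2.67 ± 0.58) and PLEKHG4B (-2.315 ± 0.59) complete the list beside KCNA1 and PRX. FMO2, OTOGL, EPHA3, PLEKHG4B and ADGRG6 each had their highest cervical level in control animal 1, and all 5 calls held without it.

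The smallest p of the comparison belonged to LILRA4 (1.01 ± 0.11), UGGT2 (-1.05 ± 0.12), ITIH1, CCNY (0.84 ± 0.10) and NEXN (-1.397 ± 0.17), all with an adjusted p of 0.00437 and the same sign in 8 of 8 animals. NEXN, an actin-binding protein, had 6.97 to 18.15 CPM in cervical and 2.59 to 6.76 CPM in thoracic libraries, without overlap.

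Markers of tissue around the cord were uneven. PRX, a protein of peripheral myelin, had 4.30 to 1478 CPM (median 14.1) in cervical and 1.80 to 4.29 CPM (median 3.58) in thoracic libraries, without overlap (-2.84 ± 1.01, adjusted p = 0.0418), and the call, with 1 animal left out, held only for the omission of control animals 1 or 4 or treated animal 4. Of 12 Schwann cell genes 4 were lower and 1 higher, and of 13 meningeal and fibroblast genes 1 was lower and 1 higher, with DCN at -0.81 ± 0.63 (adjusted p = 0.313). The list sums ran from 738 to 12930 CPM in cervical and 1006 to 2196 in thoracic libraries for Schwann cells, and from 321 to 3629 and 225 to 1525 for meninges. Of 8 skeletal muscle genes 3 were higher and 1 lower, and 0 passed without the animals of high mitochondrial share. Adipocyte genes (0 of 3 higher, 1 lower), ganglion neuron genes (0 of 9 higher, 1 lower) and T, B and NK cell genes (0 of 8) had at most 1 call each. Among all genes 23% were higher and 23.7% lower. HBB of red blood cells was higher by 1.33 ± 0.47 (adjusted p = 0.04), with 20.75 to 570 CPM in thoracic libraries, and its call, with 1 animal left out, held only for the omission of control animals 1 or 2 or treated animal 3. HBB shares exon bases with an Rfam entry. When the animals of high mitochondrial share were left out 6 meningeal genes were lower. Perineuronal net genes (2 of 10 higher, 2 lower) and ependymal genes (2 of 13 higher, 1 lower) were divided. The part of these tissues in the other results was not tested.

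Whether the regional difference itself differed between control and treated animals was tested as an interaction of region and treatment. No gene passed in edgeR (0 of 14072, 0%), with 78 genes (0.554%) at an unadjusted p under 0.05, and DESeq2 and limma voom gave 0 as well, with 126 and 85. Evenly spread p-values would put a fraction of 0.05 of the genes under that limit, far more than these. The count of 0 therefore does not show that interactions were absent. The genes named by their p were OLIG1, SLC26A4, CHADL, NEU4 and PDCD1, all with an adjusted p of 1. OLIG1, an oligodendrocyte transcription factor, had a regional log2 fold change of 1.17 in control and 0.20 in treated animals, an interaction of -1.001 ± 0.27 (unadjusted p = 0.00482). For HOXA10 the values were 4.33 and 3.86 (interaction unadjusted p = 0.853). In simulated data of this size the interaction test found 53% of 4-fold and 2.99% of 2-fold changes, so smaller interactions were not detectable here. That simulation held no shift shared by many genes of a library, so its percentages may not hold for these data.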

How the data were processed

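RNA-seq of the 16 cord libraries was analysed from the deposited table of read counts per gene. Per the labels' protocols, RNAlater-stored tissue gave RNA through the miRNeasy kit, from which TruSeq stranded mRNA libraries were made and read as 50-base pairs. Per the submitters' processing notes the reads were aligned with STAR 2.5.3a. Per the file headers, counts came from featureCounts 1.4.6-p1 with the Macaca_fascicularis 5.0 annotation, release 94, with neither the pair nor the strand option, so each mate counted as 1 read and overlapping genes on opposite strands cannot be told apart. The table holds 16842 gene names, 140 of them on more than 1 chromosome.

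Genes were filtered by edgeR 4.0.16 (filterByExpr by region), scaled by TMM and tested with the robust quasi-likelihood test with animal as a block and Benjamini-Hochberg adjustment at 0.05. The pairing comes from animal identifiers in the labels; deviations from the group means correlated at 0.0634 to 0.6605 within an animal. Library shares were compared by an exact paired permutation test. R 4.3.3, DESeq2 1.42.0 and limma 3.58.1 gave alternatives, beside other scalings, filters, blocks and left-out animals. The library totals scaling, the mitochondrial covariate and the joint omission of control animal 1 and the animals of high mitochondrial share were added after the data were seen. The members and gene lists were chosen with earlier results of these data known. Named were all HOX genes tested, the 12 largest rises and falls that averaged 1 CPM or more and had the same sign in all 8 animals, the 5 smallest p, up to 4 members per list by p, and defining markers. On simulated data of 14072 genes the regional test recovered 19.4% of 1.5-fold, 62.7% of 2-fold and 93.9% of 4-fold changes, with 3 false calls. This simulation and that of the interaction changed 200 genes and drew counts independently for each gene. Neither held a shift shared by many genes of a library, such as that with the mitochondrial share. The 3 false calls thus give no error rate for the 6578 calls. Nothing in the labels says more of how replicates were taken than that they are separate animals. Some genes are not reported here, and no gene sequence was used here.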

Additional observations from a re-analysis of the deposited data

Results flagged for a closer look

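Levels were looked at gene by gene for libraries that stand far from the other 7 of their region, by Dixon's ratio for 8 samples (critical value 0.526). Of 208 groups of 8 libraries, 45 held such a value, and 13 of them were in the cervical library of control animal 1 and 15 in that of treated animal 4. A rate of about 1 in 20 by chance holds only for independent, normally distributed values. Levels here were untransformed and many genes were picked by their p, so the number 45 cannot be set against that rate. Every value below is a level in CPM on the TMM scale, followed by the nearest other library of the region, and no explanation was tested.

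In the cervical library of treated animal 4, the level stood apart as higher for HOXB2 at 66.68 (nearest other 41.93), HOXD1 at 7.197 (nearest other 4.044), TPPP3 at 295.2 (nearest other 195.7) and NKX6-2 at 55.84 (nearest other 25.57). Also higher there were AIF1 at 53.54 (nearest other 28.43), TYROBP at 58.61 (nearest other 26.51), RPL3 at 517.7 (nearest other 293) and RPS15 at 324.2 (nearest other 148.2). Also higher there were ND3 at 8057 (nearest other 3487), NDUFA1 at 204.9 (nearest other 86.21), ID2 at 213.7 (nearest other 115.4) and C4orf48 at 6.133 (nearest other 3.134). Also higher there were LILRA4 at 23.74 (nearest other 11.93). Lower there were COL11A1 at 28.91 (nearest other 72.95) and TECPR2 at 8.78 (nearest other 69.52).

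In the cervical library of control animal 1, the level stood apart as higher for ALDH1A3 at 89.18 (nearest other 15.5), PDGFRB at 120.6 (nearest other 59.06) and COL4A2 at 262.8 (nearest other 51.12). Also higher there were DCN at 1087 (nearest other 260.9), GRIK3 at 21.92 (nearest other 10.13), FOS at 97.2 (nearest other 47.91) and KLF4 at 39.81 (nearest other 15.48). Also higher there were PRX at 1478 (nearest other 190.2), FMO2 at 25.45 (nearest other 8.371), OTOGL at 10.76 (nearest other 4.95) and EPHA3 at 13.11 (nearest other 5.294). Also higher there were PLEKHG4B at 11.34 (nearest other 4.235) and ADGRG6 at 100.9 (nearest other 25.06).

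Thoracic treated animal 1 stood apart as higher for LAPTM5 at 233.2 (nearest other 192.4), FOS at 33.39 (nearest other 14.06) and FAM178B at 85.22 (nearest other 42.7). Thoracic control animal 3 stood apart as higher for ABCB1 at 30.07 (nearest other 15.87), TECPR2 at 72.26 (nearest other 27.93) and HBB at 569.7 (nearest other 235.8). In the cervical library of control animal 4, the level stood apart as higher for CHAT at 18.79 (nearest other 7.988), SV2C at 91.27 (nearest other 40.93) and KCNA1 at 16.8 (nearest other 7.506). Thoracic treated animal 2 stood apart as higher for RF01874 at 0.7967 (nearest other 0.388). Lower there were KLK6 at 249 (nearest other 390.5). Thoracic control animal 4 stood apart as higher for DCN at 271.3 (nearest other 110.2) and APOA2 at 14.82 (nearest other 6.111). In the cervical library of treated animal 1, the level stood apart as higher for CYP26B1 at 7.851 (nearest other 4.488). Thoracic control animal 2 stood apart as higher for HOXD9 at 6.934 (nearest other 2.352). Thoracic control animal 1 stood apart as higher for ACTA2 at 20.91 (nearest other 8.614). Thoracic treated animal 3 stood apart as lower for CLDN5 at 5.127 (nearest other 8.631).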

How the results depend on the processing

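The count of 6578 genes past the threshold stayed within 1.5 times under 10 other fits of all animals or regions, from 5239 without the replicate block to 7412 in DESeq2, and at 4754 to 6722 when 1 animal was left out. It moved to 2651 without the 3 animals with a mitochondrial share over 30%, to 2085 without these and control animal 1, and to 0 with the mitochondrial share as covariate, in control animals alone and in treated animals alone, where 2361, 4265 and 5334 genes had an unadjusted p under 0.05. The fits of 1 dose group and those without the animals of high mitochondrial share use fewer samples, and any other cause was not tested. The interaction count was 0 in every fit run, and 0 to 0 with 1 animal left out. The mitochondrial share difference of 9.43 points was 10.75 in control animals alone (exact p = 0.125) and 8.12 in treated animals alone (exact p = 0.25), where 0.125 is the smallest p that 4 animals allow, and 7.92 to 11.2 with 1 animal left out.

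Reversed signs concerned values that did not pass, except PBX3, which was called and became -0.038 under library totals alone. Under that scaling MBP was at -0.092, CLDN5 at -0.087 and HOXC8 at -0.00779. HOXC8 was also at -0.027 with all 24 cord libraries, -0.27 without the replicate block and, with 1 animal left out, ranged from -0.13 without control animal 3, through -0.085 without treated animal 2, to 0.66 without control animal 4. CLDN5 was at -0.12 with the mitochondrial covariate and -0.022 in treated animals alone. CHAT was at 1.465 in control animals alone and 0.70 without the animals of high mitochondrial share. In treated animals alone SLC26A4 was at 0.45 and PDCD1 at -0.024. The cause was not tested. Without the replicate block 97 of 103 named genes kept sign and side of the threshold, and 5 lost their call. Depth limits genes near the 0.0619 to 0.0791 CPM that 3 counts represent.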
